A study of Mus musculus with 16 samples.

Results

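A set of 10 genes of the perineuronal and hyaluronan matrix were measured in the cortex of mouse pups at P7. They are the lecticans Acan, Bcan, Ncan and Vcan, the tenascin Tnr, the link proteins Hapln1 and Hapln4, the hyaluronan synthases Has2 and Has3, and the hyaluronidase Hyal3. They were chosen by gene symbol from a list of 10 names, and each name matched 1 of the 36930 entries of the deposited table. All 10 were among the 21183 genes that passed the filter on low values, which asked for a log2 value above -5 in at least 12 of 16 pups.

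RNAseq was done with 8 Avil-ChR2 and 8 ChR2-flfl pups of both sexes on a C57BL6 background. All 16 carried the floxed channelrhodopsin-2/td-Tomato construct Ai27 in the Rosa26 locus, and all spent 1 h a day under blue light between P1 and P5. Avil-ChR2 pups also carried Cre recombinase under the promoter of advillin (Avil), a gene of peripheral sensory neurons, which lets the light-gated channel be made in Cre-positive cells. ChR2-flfl pups were the Cre-negative litter mates, but the labels do not say which pups shared a litter. The comparison addresses whether the matrix genes of the cortex differed between the genotypes after early blue light. Since all 16 pups had the light, light-evoked activation of sensory neurons cannot be told apart from carrying Cre and the channel. The pup numbers of the labels fell in 2 runs, 26 to 33 and 35 to 42, each with 4 pups per genotype. The labels do not call these runs batches, and the log2 difference of each of the 10 genes is given for each run beside the pooled one.

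Perineuronal nets are a lattice of extracellular matrix that condenses around the soma and proximal dendrites of certain neurons, above all parvalbumin interneurons of the cortex, as critical periods of plasticity close. Hyaluronan, a long sugar chain without a protein core, is made at the cell surface by hyaluronan synthases and forms the backbone. Lecticans are chondroitin sulfate proteoglycans that bind hyaluronan with one end and tenascin-R with the other, link proteins lock the lectican to hyaluronan, and hyaluronidases cut the chain. At P7 the mature nets have not formed yet, and a looser, juvenile matrix rich in neurocan and versican fills the tissue.

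Depth was 30549126 to 48711134 reads per pup, lowest in ChR2-flfl replicate 3 and at 47791532 or more in all Avil-ChR2 pups. Avil itself, whose promoter drives Cre, was at 0.825 to 1.46 normalized reads (CPM) in ChR2-flfl and at 37.3 to 46.4 in Avil-ChR2, in the direction of the labels in 16 of 16 pups. The cortical label was checked with marker genes. The 8 markers of excitatory neurons summed to 1380 to 1450 CPM in ChR2-flfl and to 1410 to 1490 in Avil-ChR2. Those of choroid plexus summed to 1.88 to 2.73 and 1.70 to 3.52. The 6 markers of striatum summed to 107 to 132 CPM in ChR2-flfl and to 97.3 to 144 in Avil-ChR2, and whether striatal tissue was carried along was not tested. Pvalb, the defining marker of the cells that later carry nets, was close to the detection limit with 0.062 to 0.27 CPM in ChR2-flfl and 0.083 to 0.251 in Avil-ChR2.

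Hyal3 had the largest difference of the 10 genes, and its place in the genome bears on how its reads are read, so its sequence context is shown first. The entry of Hyal3 lies on the plus strand of chromosome 9, from 107581296 to 107587359 (GRCm38). Its start falls inside the entry of Nat6 (107580170 to 107584048, same strand), an N-acetyltransferase gene listed as Naa80 in GENCODE, and both share 2753 bp, or 45.4% of the range of Hyal3. The 250 bases ahead of the Hyal3 start, chr9:107581046-107581295 on the plus strand of GRCm38.p6 from RefSeq, lie in an intron of Naa80 in the GENCODE annotation, which runs from 107580936 to 107582816, with 0 of the 250 bases in an exon of that gene. They also lie in an intron of 1 of the 3 Hyal3 transcripts of GENCODE, between exons that end at 107580935 and start at 107584752. Capitals mark the letters GGGCGG, the core of a GC box, which start 51 bases ahead of the start of the Hyal3 entry.
Hyal3 upstream: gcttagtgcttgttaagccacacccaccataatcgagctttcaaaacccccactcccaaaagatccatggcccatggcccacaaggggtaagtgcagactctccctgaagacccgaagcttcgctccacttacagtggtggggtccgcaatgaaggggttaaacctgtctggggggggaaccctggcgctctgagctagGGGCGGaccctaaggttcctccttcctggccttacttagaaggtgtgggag
GGGCGG was searched on both strands, and 32.7% of 32851 upstream windows of the same length held it. RefSeq windows were at hand for 7 of the 10 members, and 5 of them held it, namely those of Acan, Bcan, Ncan, Vcan and Hyal3. TATAAA was not among the letters of the Hyal3 window, and 12.4% of all windows held it. Hapln4, Has2 and Has3 were not in the RefSeq promoter table.

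Levels of the 10 genes were compared per kb of the longest GENCODE transcript, as CPM per kb in the 8 ChR2-flfl pups. Ncan, the juvenile lectican neurocan, was at the top with a level of 114 ± 5.93 CPM per kb (SD, n = 8), followed by Bcan (brevican) with 63.0 ± 4.63 (SD, n = 8) and Tnr, the partner of lecticans in the net, with 19.3 ± 1.41 (SD, n = 8). These 3 did not overlap with each other or with the next gene. Hapln1 and Vcan followed with 13 ± 1.31 and 13 ± 1.88 CPM per kb (SD, n = 8), and their ranges overlapped. Has3 stood alone with a level of 4.87 ± 0.166 CPM per kb. The lower end was formed by Has2 with 0.867 ± 0.209, Acan (aggrecan, the lectican of mature nets) with 0.728 ± 0.0732, Hyal3 with 0.415 ± 0.126 and Hapln4 with 0.407 ± 0.0623 CPM per kb. In this lower part Has2 overlapped with Acan and with Hyal3, and Hyal3 with Hapln4. The top level was 280-fold that of Hapln4.

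**Figure D1:**
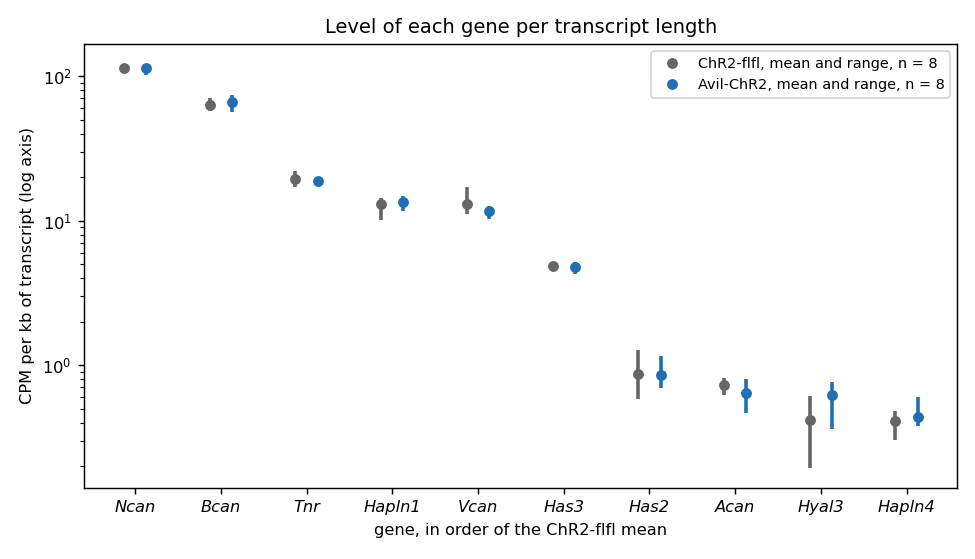
CPM per kb of the longest transcript on a log axis for the 10 genes, in the order of the ChR2-flfl mean. Dots are means and lines the range over 8 pups of ChR2-flfl (gray) or Avil-ChR2 (blue). The full span over the genes, from 114 for Ncan down to 0.407 for Hapln4 in ChR2-flfl, is much larger than the differences between genotypes. Some neighbours in the order, such as Hapln1 and Vcan, are closer to each other than Hyal3 is between genotypes.

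In Avil-ChR2 cortices the order of the 10 genes was the same and the levels were close, with 113 ± 5.94 CPM per kb for Ncan, 66.3 ± 5.41 for Bcan and 18.8 ± 0.744 for Tnr (SD, n = 8). Hyal3 had 0.619 ± 0.139 CPM per kb (SD, n = 8) and Acan 0.640 ± 0.121, and the ranges of both overlapped. The order among genes is a description and was not tested.

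Between genotypes, 0 of the 10 genes had an adjusted p under 0.05 in the limma test, with adjusted p between 0.825 and 1.0. Over all genes tested, 0.00944% had such an adjusted p. At an unadjusted p under 0.05, 1 member was higher in Avil-ChR2 (Hyal3), where 1.95% of all genes were, and 1 was lower (Vcan), where 3.46% of all genes were. The remaining 8 had an unadjusted p of 0.0657 or more. The log2 differences, Avil-ChR2 minus ChR2-flfl, had a median of -0.008 over the 10 genes and of 0.002 over all genes, and their size without the sign had a median of 0.062 and 0.051. In whole cortex, fewer cells that make a transcript and less RNA per cell cannot be told apart. P-values measure the spread between pups, and pups of the same litter could not be recognized.

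**Figure D2:**
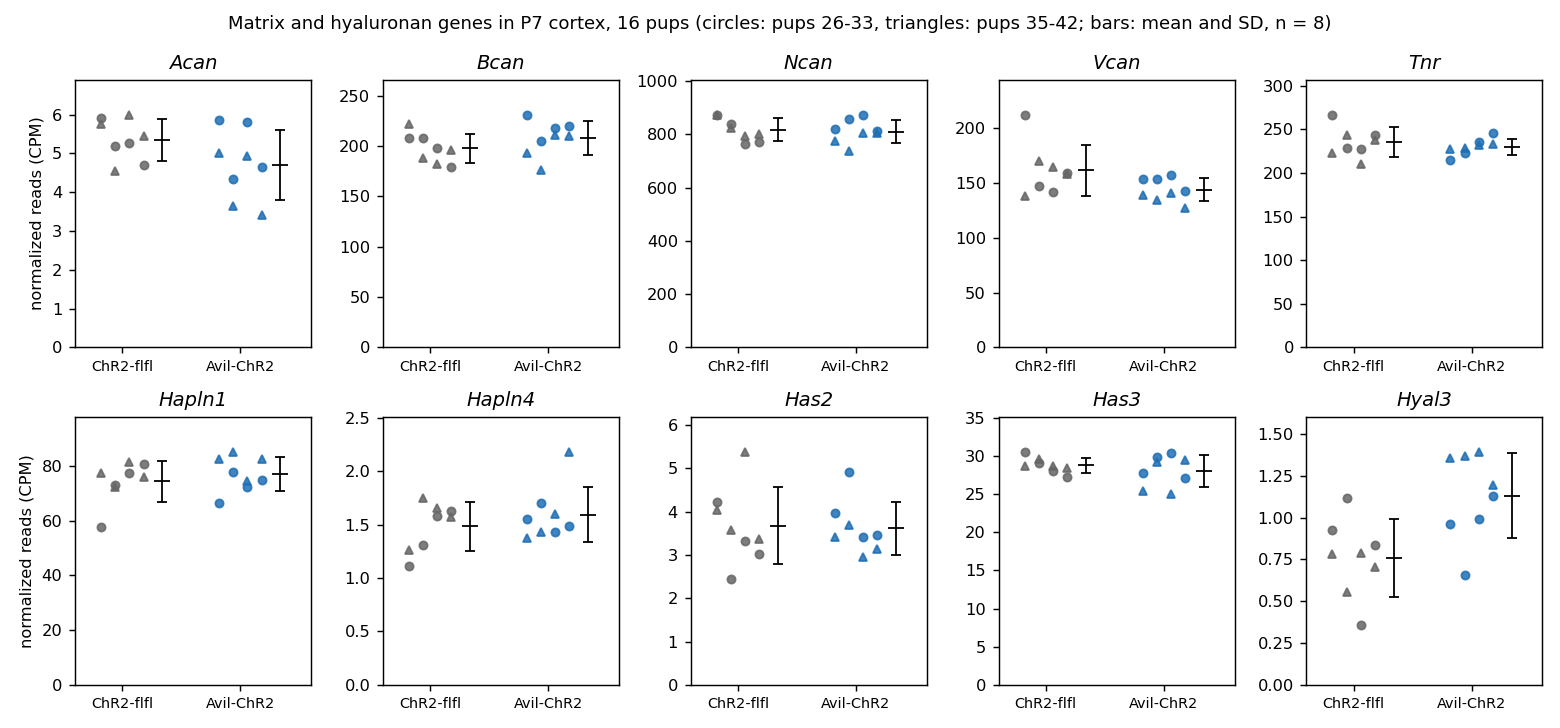
Normalized reads (CPM, linear axes from 0) of the 10 genes in each of 16 pups. Circles are pups 26 to 33, triangles pups 35 to 42, and bars show mean and SD of 8 pups per genotype. The genotypes overlap for all 10 genes, and the high Vcan point at 213 CPM and the low Hapln1 point at 57.8 CPM are the same ChR2-flfl pup.

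Among the lecticans, Vcan and Acan were on average lower in Avil-ChR2, whereas Bcan and Ncan differed by less than 0.1 on the log2 scale. Versican (Vcan, chromosome 13, 89655309 to 89742694), a large lectican of the embryonic and juvenile matrix, ranged from 138 to 213 CPM in ChR2-flfl with a median of 159, and from 128 to 158 CPM in Avil-ChR2 with a median of 142. Each of the 8 Avil-ChR2 pups lay under the control mean of 162 CPM, and 2 of them under the lowest control, so that the groups overlapped. The log2 difference was -0.16 (standard error 0.07, 95% interval -0.30 to -0.016), with an unadjusted p of 0.0307 and an adjusted p of 0.884 in limma. A two-sided exact permutation of the pups gave p = 0.0482. Without ChR2-flfl replicate 1, the pup at 213 CPM, the difference was -0.10 with an unadjusted limma p of 0.0584. By run, it was -0.10 for pups 26 to 33 and -0.21 for pups 35 to 42.

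The entry of Vcan is overlapped on the opposite strand by Gm4117, a predicted gene, over 8655 bp. Gm4117 had 35 to 67 reads per pup, against 4404 to 10311 for Vcan in ChR2-flfl and 6201 to 7604 in Avil-ChR2.

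Aggrecan (Acan, chromosome 7, 79053202 to 79115099), the proteoglycan that is needed to build a net, had 4.54 to 6.0 CPM in ChR2-flfl with a median of 5.35, and 3.42 to 5.85 CPM in Avil-ChR2 with a median of 4.79. Of the Avil-ChR2 pups, 3 of 8 lay below the lowest control and 2 of 8 above the control mean. The log2 difference was -0.20 (standard error 0.10, 95% interval -0.42 to 0.015, adjusted p = 0.916 by limma), and the exact permutation p was 0.0959. By run, it was -0.039 for pups 26 to 33 and -0.37 for pups 35 to 42, where the Avil-ChR2 pups had 4.25 ± 0.838 CPM and the controls 5.43 ± 0.640 (SD, n = 4). A test of the difference between the runs gave an unadjusted limma p of 0.11.

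Brevican (Bcan, chromosome 3, 87987531 to 88000893), a short lectican made by astrocytes and oligodendrocyte precursors, had 180 to 222 CPM in ChR2-flfl with a median of 197, and 177 to 231 CPM in Avil-ChR2 with a median of 211. The ranges of the genotypes overlapped, and the pooled log2 difference was 0.07 (95% interval -0.033 to 0.18, adjusted p = 0.945 by limma). Split by run, Bcan differed by 0.14 in pups 26 to 33, with an unadjusted p of 0.0229 and an adjusted p of 1.0 in limma, and by 0.0049 in pups 35 to 42. Neurocan (Ncan, chromosome 8, 70093082 to 70120870) had 762 to 873 CPM in ChR2-flfl with a median of 813, and 736 to 871 CPM in Avil-ChR2 with a median of 810. With up to 42372 reads per pup it was the best measured of the 10 genes, and its 95% interval of -0.09 to 0.063 on the log2 scale allows a change of 0.94-fold to 1.04-fold. Its difference was 0.05 in the first run and -0.08 in the second.

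Tenascin-R (Tnr, chromosome 1, 159523741 to 159931729), the trimeric glycoprotein that ties lecticans together, had 210 to 267 CPM in ChR2-flfl with a median of 233, and 215 to 246 CPM in Avil-ChR2 with a median of 230. All Avil-ChR2 pups were within the range of the controls. A predicted gene on the other strand, Gm31348, lies inside Tnr and had 0 reads in all pups, as had the microRNA entry Mir7066 inside Ncan. The log2 difference was -0.03 (95% interval -0.11 to 0.052, adjusted p = 0.978 by limma). It was -0.07 in the first run and 0.014 in the second, and -0.0033 over both without ChR2-flfl replicate 1.

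The link proteins were at most 1.08-fold higher on average in Avil-ChR2. Hapln1 (chromosome 13, 89540529 to 89611832), the link protein of cartilage and of nets, had 57.8 to 81.6 CPM in ChR2-flfl with a median of 76.7, and 66.6 to 85.2 CPM in Avil-ChR2 with a median of 76.4. In Avil-ChR2, 3 of 8 pups were above the highest control, but the medians were nearly equal and the log2 difference was 0.05 (95% interval -0.077 to 0.18, adjusted p = 0.974 by limma). Without ChR2-flfl replicate 1, the pup at 57.8 CPM, it was 0.0002. Hapln1 differed by 0.023 in the first run and by 0.08 in the second. Over both genotypes, Hapln1 was lower in pups 26 to 33 than in pups 35 to 42, by a log2 difference of -0.13 with an unadjusted p of 0.031 and an adjusted p of 0.341 in limma. Hapln4 (chromosome 8, 70083529 to 70090862), a link protein that binds brevican, had only 49 to 106 reads per pup. It was at 1.11 to 1.75 CPM in ChR2-flfl with a median of 1.58 and at 1.38 to 2.18 CPM in Avil-ChR2 with a median of 1.52, and its log2 difference of 0.11 had a 95% interval of -0.14 to 0.35. Hapln4 differed by 0.15 in the first run and by 0.06 in the second, and by 0.039 without Avil-ChR2 replicate 8 or 0.05 without ChR2-flfl replicate 1.

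The hyaluronan synthases did not differ beyond the spread between pups. Has3 (chromosome 8, 106870242 to 106882902), which makes shorter chains, had 27.3 to 30.5 CPM in ChR2-flfl with a median of 28.7, and 25.1 to 30.5 CPM in Avil-ChR2 with a median of 28.5. It was the most even gene of the list in the controls, with a coefficient of variation of 3.41%, against 7.33% in Avil-ChR2. In Avil-ChR2, 3 of 8 pups were under the lowest control, and the log2 difference was -0.04 (95% interval -0.13 to 0.047, adjusted p = 0.964 by limma). Has3 differed by 0.004 in the first run and by -0.08 in the second.

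Has2 (chromosome 15, 56665627 to 56694546), the synthase of very long hyaluronan, had 2.45 to 5.38 CPM in ChR2-flfl with a median of 3.47, and 2.95 to 4.92 CPM in Avil-ChR2 with a median of 3.43. The pooled log2 difference was -0.0025 (95% interval -0.28 to 0.27), but the runs pointed opposite ways. In pups 26 to 33 the controls had 3.26 ± 0.742 CPM and the Avil-ChR2 pups 3.94 ± 0.701 (SD, n = 4), a log2 difference of 0.29. In pups 35 to 42 the controls had 4.09 ± 0.903 CPM and the Avil-ChR2 pups 3.30 ± 0.330 (SD, n = 4), a log2 difference of -0.29. The test of the difference between the runs had an unadjusted p of 0.0264 and an adjusted p of 1.0 in limma. An antisense entry, Has2os, lies within Has2 on the other strand and had 0 reads in all 16 pups, so that its reads, if any, cannot be told apart from those of Has2.

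**Figure D3:**
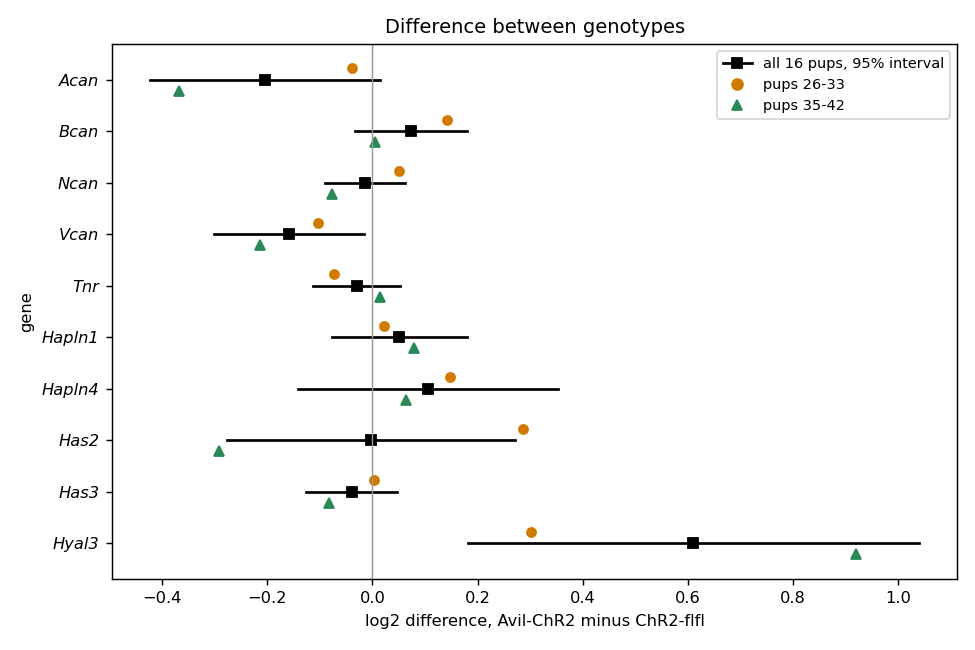
Log2 difference, Avil-ChR2 minus ChR2-flfl, for the 10 genes. Squares with lines give all 16 pups with the 95% interval of the limma fit, circles pups 26 to 33 and triangles pups 35 to 42. The interval of Hyal3 (0.18 to 1.04) and that of Vcan (-0.30 to -0.016) do not reach 0. Between the runs 4 of 10 genes changed sign. The share of all genes that did so is not given, so this count cannot be read against them.

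Hyal3, a hyaluronidase whose activity on hyaluronan is thought to be weak, was the gene with the fewest reads. In ChR2-flfl, replicates 1 to 8 had 45, 54, 11, 40, 38, 27, 38 and 34 reads. In Avil-ChR2, replicates 1 to 8 had 47, 32, 48, 54, 66, 67, 68 and 58 reads. As CPM this gave 0.356 to 1.12 in ChR2-flfl with a median of 0.786, and 0.659 to 1.39 in Avil-ChR2 with a median of 1.16. Of the Avil-ChR2 pups 7 of 8 were above the ChR2-flfl mean and 5 of 8 above the highest control, and replicate 2 was below that mean. The log2 difference was 0.61 (standard error 0.21, 95% interval 0.18 to 1.04), a 1.53-fold level, with an unadjusted p of 0.00766 and an adjusted p of 0.825 in limma. The exact permutation test gave p = 0.011, 1 of 10 such tests. Hyal3 is in the study's list of immune or inflammatory genes that was made by P-value on these same pups, so its direction is not independent evidence.

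The low number of reads limits the value for a single pup. A count of 11 in ChR2-flfl replicate 3, the shallowest library, has an exact 95% Poisson interval of 5.49 to 19.7 reads, and a count of 68 in Avil-ChR2 replicate 7 one of 52.8 to 86.2 reads. These intervals cover counting error only. Counting alone gives a coefficient of variation of 14.8% at the mean of 45.4 reads, and the pups varied by 30.4% in ChR2-flfl and 22.4% in Avil-ChR2. Without ChR2-flfl replicate 3 the log2 difference was 0.46, with p = 0.0216 in the exact permutation test. With log2(value + 1) in place of log2, it was 0.28.

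Split by run, the genotypes were apart for Hyal3 in the second run and overlapped in the first. In pups 35 to 42 the controls had 0.557 to 0.789 CPM and the Avil-ChR2 pups 1.19 to 1.39, a log2 difference of 0.92 without overlap, where the exact permutation test of 4 against 4 reached its smallest possible p of 0.0286. The adjusted limma p of Hyal3 in that run was 0.884. How many of all genes were without overlap there is not given, so the gap cannot be read against them. In pups 26 to 33 the controls had 0.356 to 1.12 CPM and the Avil-ChR2 pups 0.659 to 1.13, a log2 difference of 0.30 with a permutation p of 0.543. The test of the difference between the runs gave an unadjusted limma p of 0.132, so that the runs were not shown to differ.

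Reads over Hyal3 and its neighbours were then compared. Nat6, the overlapping entry, had 294 to 482 reads per pup and a level of 8.82 ± 0.828 CPM in ChR2-flfl and 8.53 ± 0.682 in Avil-ChR2 (SD, n = 8), a log2 difference of -0.05 with an adjusted limma p of 0.981. When both entries were added up, ChR2-flfl had 9.58 ± 0.882 CPM and Avil-ChR2 9.67 ± 0.490 (SD, n = 8), and the log2 difference of the sum was 0.018 with p = 0.778 in the exact permutation test. Most of that sum is Nat6. Hyal3 took 7.91 ± 2.19% of the reads of the pair in ChR2-flfl and 11.8 ± 3.03% in Avil-ChR2 (SD, n = 8), with p = 0.012 in the exact permutation test. This share was chosen after the values were seen.

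How reads that fall in 2 entries were assigned is not stated in the sources used here. In the table, 5866 entries lie wholly inside the range of another one, and 94.4% of them had 0 reads in all 16 pups, 95.6% of those with the larger entry on the same strand and 93.6% of those with it on the opposite strand only. Of the 22211 entries that overlap no other, 13.6% had 0 reads, and of the 8809 that overlap in part or hold another entry, 1.42%. Hyal3 is of the last kind. In GENCODE 1 of its 3 transcripts starts with an exon of 41 bp that lies in the shared range, another starts with an exon of 118 bp that is also an exon of Naa80 and lies ahead of the Hyal3 entry, and the third has no exon there. All coding bases of Hyal3 lie past the end of Nat6, where the next exon starts at 107584752, after a gap of 703 bp. The part of the overlap in the difference of Hyal3 was not tested. The sum cannot decide it, since its SD of 0.882 CPM in ChR2-flfl is larger than the gap between the Hyal3 means of 0.759 and 1.13 CPM. The share cannot either, since it holds the same Hyal3 reads as the test of Hyal3 alone.

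**Figure D4:**
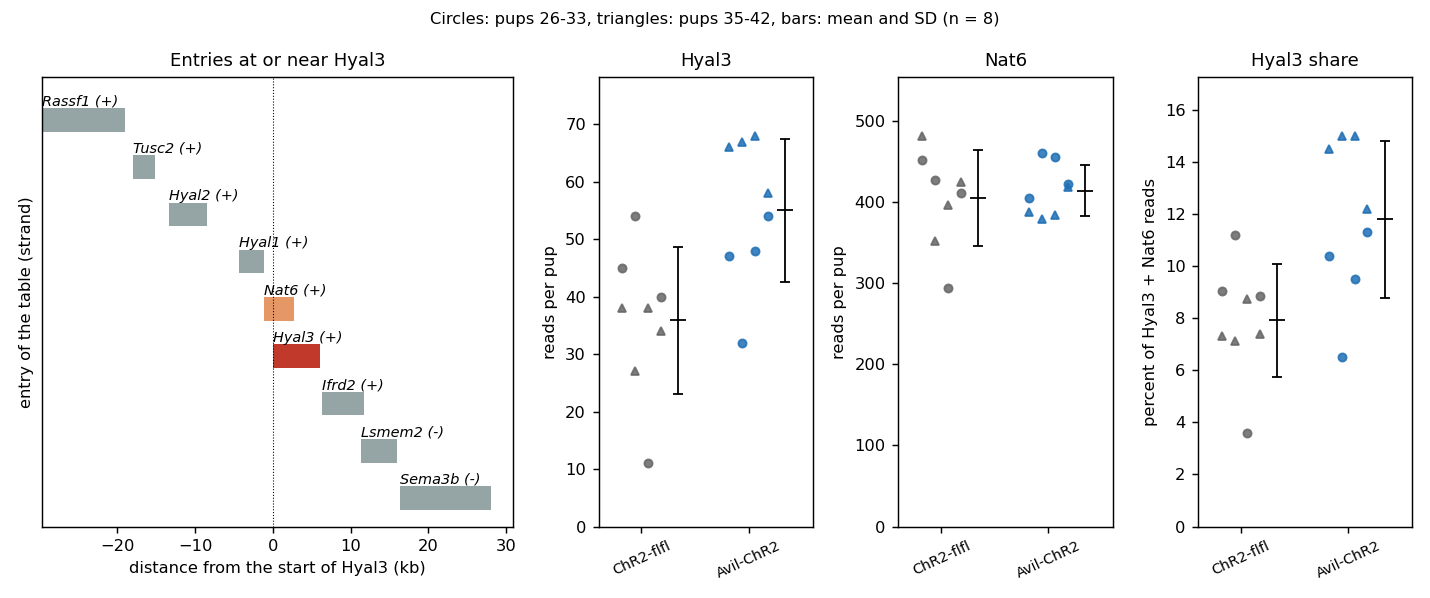
Left, the entries of the table at or within 20 kb of Hyal3 as bars against the distance from its start in kb, with the strand in brackets; Nat6 (orange) covers the start of Hyal3 (red). Right, reads per pup of Hyal3 and Nat6 and the percent of their reads that were Hyal3, with circles for pups 26 to 33, triangles for pups 35 to 42 and bars for mean and SD of 8 pups. Hyal3 reads reach 54 in ChR2-flfl and 68 in Avil-ChR2, and Nat6 reads overlap throughout.

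The other entries within 20 kb hold 2 further hyaluronidases. Hyal2, a membrane-bound enzyme that cuts long hyaluronan, had 11.8 ± 1.20 CPM in ChR2-flfl and 11.9 ± 1.23 in Avil-ChR2 (SD, n = 8), a log2 difference of 0.0076. Hyal1, the lysosomal enzyme, had 1.71 ± 0.326 and 1.75 ± 0.233 CPM (SD, n = 8), a log2 difference of 0.04. Tusc2 had an unadjusted p of 0.0403 for a log2 difference of 0.07, with an adjusted p of 0.908 in limma, whereas Rassf1, Ifrd2, Lsmem2 and Sema3b differed by 0.01, 0.04, -0.03 and 0.01 on the log2 scale.

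Each lectican gene lies next to a link protein gene in the mouse genome, with 0 other entries of the table between them. The gap is 1927 bp between Acan and Hapln3, 19664 bp between Bcan and Hapln2, 2219 bp between Ncan and Hapln4, and 43476 bp between Vcan and Hapln1. Whether both genes of a pair varied together over the 16 pups was tested in 4 correlations of log2 CPM with a permutation test of 100000 resamples. Acan and Hapln3 had r = 0.00 (rho = 0.012), Bcan and Hapln2 r = 0.13 (rho = 0.081), and Ncan and Hapln4 r = -0.32 (rho = -0.33). The adjusted p over the 4 pairs was 0.999, 0.825 and 0.446 for r in these permutation tests, and 0.969, 0.969 and 0.426 for rho.

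Vcan and Hapln1 went opposite ways, with r = -0.75 (permutation p = 0.00366, adjusted p = 0.0146) and rho = -0.54 (permutation p = 0.0349, adjusted p = 0.14). Within pups 26 to 33 r was -0.80 and within pups 35 to 42 it was -0.55. Leaving out the 2 pups farthest from the Vcan median, ChR2-flfl replicate 1 and Avil-ChR2 replicate 8, left r = -0.32 with a permutation p of 0.261, so that the relation rests on these pups. ChR2-flfl replicate 1 had the highest Vcan and the lowest Hapln1 of all 16 pups. In the same pup the summed astrocyte markers were at 1565 CPM, the lowest of all, against 1769 to 2020 in the others, and the markers of meninges and fibroblasts at 303 CPM, against 319 to 677. Their part in the relation was not tested.

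**Figure D5:**
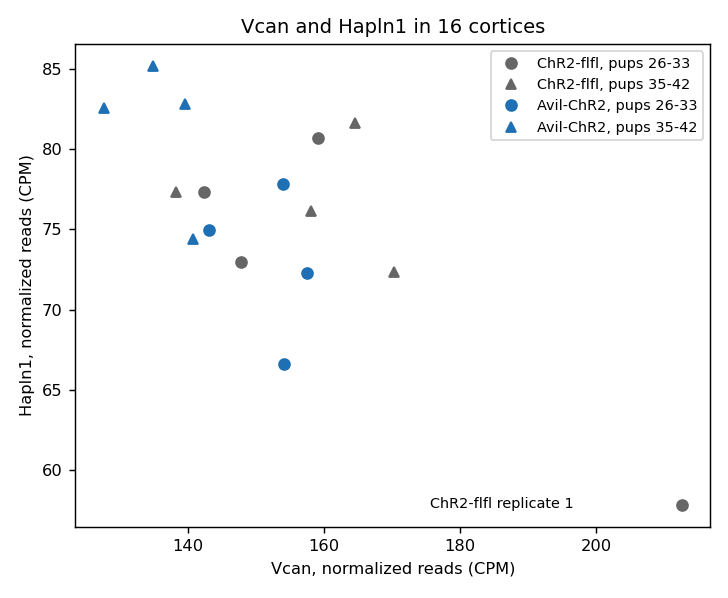
Hapln1 against Vcan, both as CPM, with 1 point for each of 16 pups (gray, ChR2-flfl; blue, Avil-ChR2; circles, pups 26 to 33; triangles, pups 35 to 42). ChR2-flfl replicate 1 lies alone at the lower right with 213 CPM of Vcan and 57.8 CPM of Hapln1.

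The other genes of the pathway were taken from 9 lists with 80 genes, of which 68 passed the filter. Of these, 0 had an adjusted p under 0.05 in limma, 1 was higher at an unadjusted p under 0.05 and 0 were lower, which is 1 of 68 where 1.95% of all genes were higher by the same rule. Their median log2 difference was 0.012. The 1 gene was Habp4, an intracellular protein named for its binding of hyaluronan and RNA, with 95.9 ± 3.94 CPM in ChR2-flfl and 103 ± 5.81 in Avil-ChR2 (SD, n = 8). Its log2 difference was 0.09 with an adjusted limma p of 0.825, and it was 0.06 for the first run and 0.13 for the second.

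Among other net components, Hapln2, a link protein of the node of Ranvier, had 0.556 ± 0.148 CPM in ChR2-flfl and 0.435 ± 0.163 in Avil-ChR2 (SD, n = 8), and Hapln3 had 1.76 ± 0.279 and 1.84 ± 0.240 CPM. All 3 other tenascins were lower on average, and 0 of 3 passed the test. Over all genes tested, 10298 were lower on average and 10885 higher, and the direction of these 3 as a set was not tested. Tenascin-C (Tnc), which precedes tenascin-R in development, had a log2 difference of -0.03, Tnxb of -0.02 and Tnn of -0.21. Of 3 other chondroitin sulfate proteoglycans 0 passed. Ptprz1 (phosphacan), Cspg5 (neuroglycan C) and Cspg4 (NG2, of oligodendrocyte precursors) had log2 differences of -0.07, 0.05 and -0.04.

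For the turnover of hyaluronan, 0 of 8 tested genes of degradation passed, with log2 differences from -0.05 to 0.23. Cemip, a protein needed for hyaluronan breakdown at the cell surface, had a log2 difference of 0.07, and Hexa, which encodes a lysosomal enzyme, one of -0.01. Has1, the third synthase, had 0.520 ± 0.188 CPM in ChR2-flfl and 0.484 ± 0.112 in Avil-ChR2 (SD, n = 8). Of the receptors and binders of hyaluronan 1 of 10 passed at the unadjusted p, which was Habp4. Over all genes, 1.95% were higher by the same rule. Cd44, the main hyaluronan receptor, had a log2 difference of 0.04 and Itih5 one of 0.04.

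In the chondroitin sulfate chain, 0 of 22 tested genes of synthesis and sulfation passed, with a median log2 difference of 0.012 and a range from -0.08 to 0.17. Fam20b, the xylose kinase, differed by 0.04, Arsb, a lysosomal sulfatase, by 0.01, and B3gat3, which completes the linker, by 0.03. Among the receptors and ligands of the chains 0 of 8 passed. Ptprs and Ptprf, receptor phosphatases that bind the chains, and Sema3a, a repellent held in nets, differed by -0.01, -0.02 and -0.04. Among matrix proteases and inhibitors 0 of 11 passed, and 10 of 11 were higher on average, by at most 0.08. Of all genes tested, 10885 were higher on average and 10298 lower, and the direction of these 11 as a set was not tested. Timp2, Mmp14 and Plat, the 3 with the highest levels in that list, differed by 0.02, 0.06 and 0.02.

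Of the 80 pathway genes, 12 did not pass the filter on low values. Hyal4, Hyal6, Spam1, Itih1, Habp2, Otx2, Chst13 and Mmp3 had 24 reads or fewer over all 16 pups. Timp1, Timp3, Timp4 and Nptxr had 0 reads in all 16 pups, and each lies inside the range of another entry with many reads, Syn1, Syn3, Syn2 and Npcd. They are listed without reads here, and nothing can be said on their level.

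Markers of the cell types that make these genes overlapped between genotypes. The summed level of 8 astrocyte markers was 1560 to 1970 CPM in ChR2-flfl and 1780 to 2020 in Avil-ChR2, with 7 of 8 higher on average. For 7 markers of oligodendrocyte precursors it was 235 to 284 and 241 to 282 CPM, with Gpr17 listed at 0, and for 8 markers of microglia 256 to 339 and 251 to 314 CPM, with P2ry12 listed at 0. For 6 genes of parvalbumin interneurons it was 203 to 244 and 203 to 223 CPM, with 4 higher and 2 lower, 2 of them at an unadjusted p under 0.05. These were Erbb4, a neuregulin receptor, with a log2 difference of -0.18, and Tac1, a tachykinin, with 0.28, named after their values were seen, and their adjusted p in limma was 0.691 and 0.841. Of all 21183 genes tested, 10885 were higher on average in Avil-ChR2. At an unadjusted limma p under 0.05, 1.95% of all genes were higher and 3.46% lower. The excitatory neuron marker Slc17a7 and the choroid plexus marker Ttr, also named after their values were seen, had log2 differences of 0.12 and 1.33 with adjusted p of 0.884 and 0.911 in limma. In 7 lists of other markers (interneurons, oligodendrocytes, endothelial cells, meninges and fibroblasts, choroid plexus, striatum, blood) the ranges overlapped as well. Their part in the differences of the 10 genes was not tested.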

How the data were processed

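Cortices of 8 Avil-ChR2 and 8 ChR2-flfl pups were sequenced from TruSeq stranded mRNA libraries. The authors mapped reads to mm10 (GRCm38) with SeqMan NGen at a minimum read length of 50 bp, took gene counts from ArrayStar and deposited CPM scaled by TMM factors with edgeR (named in the submitters' processing notes), without pooling. Whether the counting used strand is not stated. Values were whole multiples of 1 read within 0.05 reads, up to 20000 reads, so that reads per gene were recovered. Missing values and those below -5 on the log2 scale were set to -5 (4432 of 338928 values in the genes tested).

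The genotype test was limma 3.58.1 (R 4.3.3) with an intensity trend and Benjamini-Hochberg adjustment over 21183 genes, without covariates, since the study's methods name none. Single values were compared by two-sided exact permutation over all 12870 splits of the pups (scipy, smallest p 0.000155). Scripts were tested on simulated data. Transcript lengths and exons were taken from GENCODE for GRCm38. Members and lists were chosen with earlier results of these data known. Named genes are the 10 members, Hapln2, Hapln3, Avil, entries within 20 kb of Hyal3, pathway genes at an unadjusted p under 0.05, and up to 3 genes with the highest levels per pathway list, of which 1 is not reported here. Alternatives were normalization, pseudocount, filter, sex, replicate block, runs, variance and each pup left out.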

Additional observations from a re-analysis of the deposited data

Results flagged for a closer look

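In 20 groups of 8 pups (10 genes, 2 genotypes), 3 held a pup far from the others, and chance gives about 1 in 20. Vcan was at 213 CPM in ChR2-flfl replicate 1, with the next pup at 170 CPM, and Hapln1 was at 57.8 CPM in the same pup, with the next at 72.3 CPM. Hapln4 was at 2.18 CPM in Avil-ChR2 replicate 8, with the next pup at 1.71 CPM.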

How the results depend on the processing

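Under all alternatives 0 of the 10 genes had an adjusted p under 0.05, and the smallest adjusted p of a member was 0.474. Of 279 recomputed log2 differences, 263 kept their direction and side of the threshold and 16 changed sign. Hyal3 stayed higher in each fit that held it, by 0.46 to 0.72 with 1 pup left out, and Vcan stayed lower, by -0.19 to -0.10. Signs changed for Ncan (0.0504), Has2 (0.2861) and Has3 (0.0038) in pups 26 to 33 alone, for Tnr (0.014) in pups 35 to 42 alone and for Has2 with sex as a covariate (0.024). With 1 pup left out, Ncan lay between -0.0286 and 0.0063, Has2 between -0.0812 and 0.0811, and the sum of Hyal3 and Nat6 between -0.0232 and 0.0421, with its 1 negative value without ChR2-flfl replicate 6.

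The count of members higher at an unadjusted p under 0.05 was 0 when genes with a mean log2 value under 0, such as Hyal3, were left out, and 1 to 2 with 1 pup left out. The count of those lower was 0 without a filter, in pups 26 to 33 and in an unmoderated test, 2 in pups 35 to 42, and 0 to 2 with 1 pup left out. It was 0 without ChR2-flfl replicate 1 or Avil-ChR2 replicate 6 or 8, and 2 without ChR2-flfl replicate 4 or Avil-ChR2 replicate 1 or 3, while the count of those higher was 2 without Avil-ChR2 replicate 6. Equal counts can hold different genes. The gene counted lower without ChR2-flfl replicate 6 was Acan (unadjusted p = 0.0397) and not Vcan (0.056), and the gene counted higher in pups 26 to 33 was Bcan and not Hyal3 (0.373). With the replicate number as a block (replicate block) it was 2. Deviations of same-numbered pups correlated at -0.07 to 0.125, so that the numbers did not pair the pups, and the block changed no other count. Pathway genes that were higher numbered 0 in pups 26 to 33, 3 in pups 35 to 42, 2 with limma-voom on the recovered reads (added after seeing the data, like the run of pup numbers as a covariate) and 1 to 3 with 1 pup left out. Those that were lower numbered 1 in each run and 0 to 2 with 1 pup left out. The cause was not tested. The share of all genes at an unadjusted p under 0.05 was taken in the main fit only. The counts under the alternatives therefore cannot be read against all genes.

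The correlation of Vcan and Hapln1 was -0.76 with the genotype mean removed and -0.75 after quantile normalization. With the union of exons as length, Bcan was at 48.7 and Has3 at 4.51 CPM per kb in ChR2-flfl, with the order of the 10 genes unchanged. Count tests with edgeR and DESeq2 on the recovered reads were not run. Depth limits Hyal3, Hapln4 and Has2 most, at means of 45.4, 72.9 and 173 reads per pup.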
